A study of Mus musculus with 6 samples.

Results

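Hepatic drug and organic ion transporters are described here by 9 genes: Slc22a7, Slc22a18, Slc22a23, Slc22a28, Slc22a30, Slc47a1, Slco2b1, Abcg2 and Abcc6. They were taken by symbol from the 55802 distinct gene symbols of the deposited count files, and all 9 passed the filter on low counts that left 17662 genes to test. The samples are livers of C57BL/6 males, labelled 71 weeks and reared for that long, 3 libraries from mice on normal chow (control) and 3 from mice on chow that held polystyrene microplastic particles (PS-MP). Both groups share strain, sex, tissue and age, and no genetic change is named. The sources used here give no particle size, dose or start of feeding. The labels number the replicates without saying that each is a separate animal, so a p-value covers only the spread between the libraries, which may be technical. The study asks whether prolonged exposure alters gene expression in the liver.

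Hepatocytes take organic anions and cations from the blood with solute carriers of the SLC22 and SLCO families on the sinusoidal membrane. They pass drugs and conjugates on to bile or back to blood with exporters, among them the proton-coupled MATE carriers and the ATP-driven pumps of the ABC family. Together these proteins help to set how long a foreign compound stays in the liver, and several of their genes are known targets of hepatocyte transcription factors and of receptors that sense foreign compounds.

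Slc22a28 and Slc22a30 lie in a cluster of closely related SLC22 genes on chromosome 19, in the order Slc22a19, Slc22a26, Slc22a27, Slc22a28, Slc22a29, Slc22a30 in the GENCODE M21 annotation. Their promoter windows, 300 bases that end just past the start of each gene, are shown because the pair had the most negative log2 fold changes of the 9 genes and because their sequences are nearly the same. The windows are from RefSeq on build GRCm38.p6, chr19:8131933-8132232 for Slc22a28 and chr19:8405056-8405355 for Slc22a30, both on the minus strand. Capitals mark the bases at which the aligned windows differ.
Slc22a28: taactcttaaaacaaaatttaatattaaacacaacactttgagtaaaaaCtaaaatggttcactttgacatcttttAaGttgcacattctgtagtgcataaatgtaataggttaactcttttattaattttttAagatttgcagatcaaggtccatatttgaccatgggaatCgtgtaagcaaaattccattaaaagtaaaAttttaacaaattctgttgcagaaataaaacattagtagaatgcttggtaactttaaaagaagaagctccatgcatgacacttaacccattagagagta
Slc22a30: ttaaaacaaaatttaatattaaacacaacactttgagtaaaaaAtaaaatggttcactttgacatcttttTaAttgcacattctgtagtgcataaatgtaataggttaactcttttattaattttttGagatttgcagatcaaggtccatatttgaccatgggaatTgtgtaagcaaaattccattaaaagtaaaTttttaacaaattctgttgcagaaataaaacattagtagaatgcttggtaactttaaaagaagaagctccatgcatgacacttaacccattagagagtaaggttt
The windows are offset by 6 bases. Of the 294 bases that align, 288 are identical (98.0%), with 0 gaps and 6 substitutions, C50A, A77T, G79A, A134G, C173T and A202T, where the first letter is the base of Slc22a28, the number counts from 1 at the left end of its window, and the last letter is the base of Slc22a30. The RefSeq table held windows for 6 of the 9 genes, 10 windows in all, and Slc22a7, Slc47a1 and Abcc6 had no entry. Short motifs were searched on both strands. TTCNNNGAA, the core that STAT proteins recognise, was present in 8.30% of all 32851 promoter windows, in 2 of the 3 windows of Slco2b1 and in 0 windows of the other 5 genes. TGACCT, a core motif of nuclear receptors, was present in 16.3% of all windows, in 2 of the 3 windows of Abcg2 and in 0 windows of the other 5 genes. CAAAGTCCA, a motif of the HNF4 type, was present in 0.475% of all windows and in 0 windows of the 6 genes, which says only that these letters are not in these windows. A match is a run of letters and not a site shown to be bound.

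The likeness of the cluster extends to the transcripts that are counted. Over an aligned stretch of 1485 bases the longest coding transcripts of Slc22a28 and Slc22a30 in GENCODE M21 were 98.9% identical. Of the 50-base stretches of the Slc22a28 transcript, 53.9% occur in transcripts of some other gene, and 53.3% occur in Slc22a30. For Slc22a30 the same share was 36.1%, and 32.1% occur in Slc22a28. With 100-base stretches the shares were 37.0% and 24.3%. The sources used here do not say how reads that fit both genes were counted, so the split of counts between these genes is uncertain, and their sum is given beside each. Transcripts of Slc22a7, Slc22a18, Slc22a23, Slc47a1, Abcg2 and Abcc6 shared 0% of their 50-base stretches with other genes. Slco2b1 shared 8.31%, with the antisense genes Gm15635 and Gm34280 that overlap it.

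Library totals ran from 68357478 to 112566641 counts, and the 9 genes together took 0.0286% to 0.0442% of the counts. Levels are CPM, counts set to a common library total, with the TMM scaling of edgeR (trimmed mean of M values). The tissue matched its label, with summed levels of 12 hepatocyte markers (Alb among them, at a mean of 51492 CPM in control) between 78120 and 95200 CPM in control and between 84945 and 105030 CPM in PS-MP, with none at 0. Summed levels of markers of some other cells did not overlap between the diets, though edgeR called 0 of these markers. Summed levels of 8 Kupffer cell and macrophage markers were 98.4 to 130 CPM in control and 152 to 173 CPM in PS-MP, with none at 0. On the log2 scale 8 of 8 were above zero, against 52.8% of all genes tested. Higher in PS-MP without overlap were 6 of 8, against 6.24% of all genes tested. DESeq2 called 1, Marco (adjusted p = 0.00266), against 1.06% of all genes. Summed levels of 7 red cell markers were 263 to 504 CPM and 571 to 848 CPM, with 5 of the 6 tested above zero and Alas2 at -0.07. The 18S ribosomal RNA gene Rn18s-rs5 took 1.15% to 11.2% of the counts in control, the most in control replicate 2, and 0.387% to 1.14% in PS-MP. The part of these differences in the results below was not tested. In pieces of tissue, fewer cells of a type and less RNA per cell cannot be told apart.

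Among the 9 transporters, 0 passed an adjusted p of 0.05 between the diets (edgeR quasi-likelihood test with Benjamini-Hochberg adjustment across the 17662 genes), where 0.0113% of all genes did. DESeq2 and limma-voom also called 0 of the 9, where they called 1.06% and 0.00566% of all genes. At an unadjusted p under 0.05 edgeR had 1 member, Slc22a30, which is lower in PS-MP, or 1 of 9 against 5.38% of all genes (2.8% higher and 2.58% lower). Log2 fold changes, PS-MP minus control, were below zero for 6 members and above zero for 3, with a median of -0.07, where 47.2% of all genes tested were below and 52.8% above zero and their median was 0.02. Libraries did not overlap for 2 members, Slc22a30 and Abcg2, both lower in PS-MP, against 11.2% of all genes (6.24% higher and 4.99% lower). With 9 genes these counts are small, and no test of the list was made. The 95% interval lay inside a 2-fold change for 2 members, Slc22a18 and Slc22a23, against 53.6% of all genes.

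**Figure D1:**
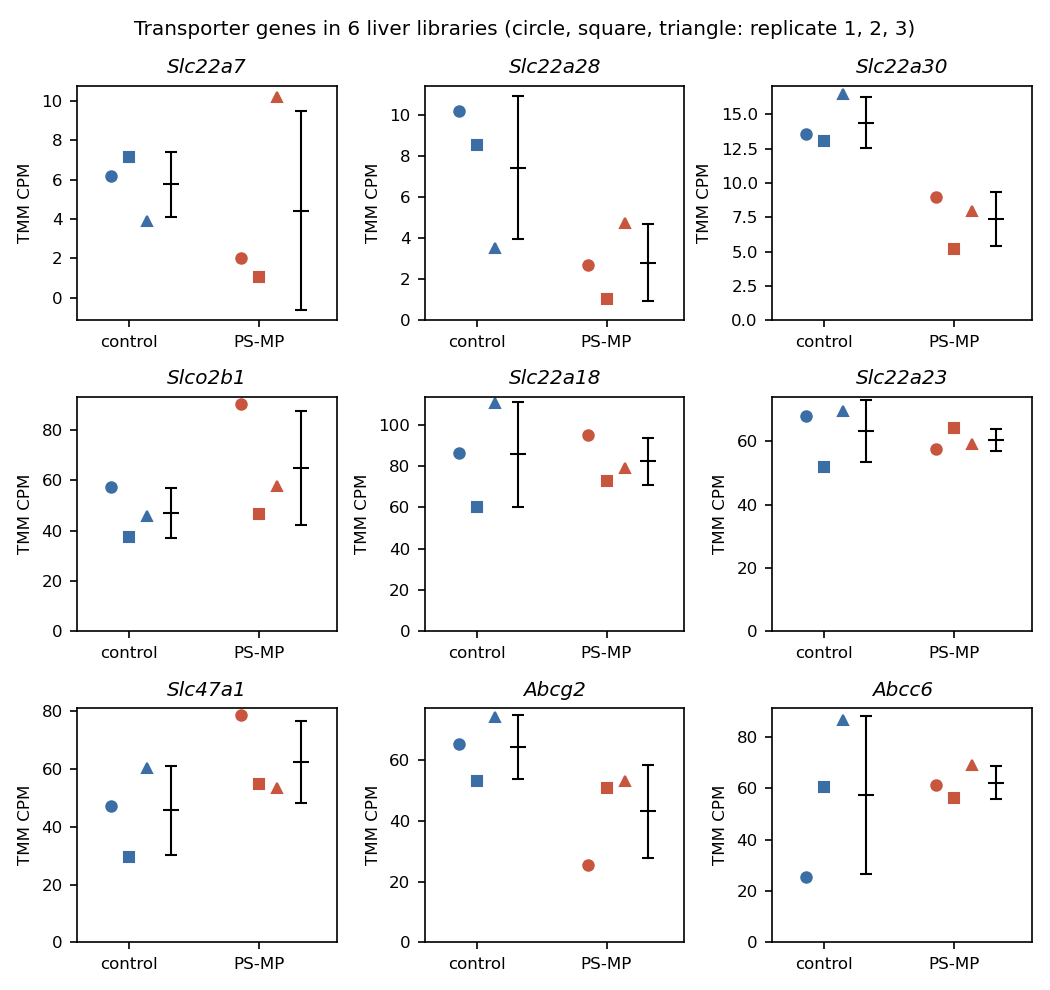
TMM-scaled CPM (vertical axes, each from its own zero or below) of the 9 transporter genes in 3 control and 3 PS-MP libraries, with points for single libraries and bars for the mean and SD. Slc22a30 and Abcg2 do not overlap between the diets, while Slc22a7 spans from 1.06 to 10.2 CPM within PS-MP.

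Of the uptake carriers, Slc22a30 had the smallest p of the 9 genes. The control libraries held 13.6, 13.1 and 16.5 CPM of it (795 to 1745 counts), and the PS-MP libraries 8.98, 5.19 and 7.94 CPM (458 to 740 counts). Each PS-MP library lay below each control library, and the means were 14.4 ± 1.85 and 7.37 ± 1.96 CPM (SD, n = 3 each). This is 1.95-fold lower (log2 fold change -0.96, SE 0.24, 95% interval -1.54 to -0.39, edgeR adjusted p = 0.767). By its unadjusted p of 0.0057 it ranked 113 of 17662 genes, so the difference was larger than the spread between its own libraries but did not pass over all genes. DESeq2 gave the same direction with an adjusted p of 0.0631.

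Slc22a28, for which the split of counts with Slc22a30 is uncertain, stood at 10.2, 8.56 and 3.54 CPM with control chow, against 2.70, 1.03 and 4.73 CPM with PS-MP. Control replicate 3 lay below PS-MP replicate 3, so the diets overlap. The log2 fold change was -1.40 (SE 0.62, interval -2.87 to 0.07, edgeR adjusted p = 0.923). As a share of the Slc22a30 counts, Slc22a28 counts were 75.2%, 65.5% and 21.4% with control chow, against 30.0%, 19.9% and 59.6% with PS-MP. The proportion of the pair thus varied from library to library within each diet by more than 2-fold.

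With the counts of the pair summed into 1 feature, a choice made after the data were seen, the diets stood apart as they did for Slc22a30 alone. The sum of Slc22a28 and Slc22a30 was 23.8, 21.6 and 20.0 CPM in the control libraries, against 11.7, 6.22 and 12.7 CPM in the PS-MP libraries, with no overlap. It was 2.14-fold lower in PS-MP (log2 fold change -1.10, SE 0.28, interval -1.76 to -0.43, edgeR adjusted p = 0.767, DESeq2 adjusted p = 0.0621). Adding the neighbours Slc22a27 and Slc22a29, whose transcripts align to that of Slc22a28 with 90.7% and 88.9% identity, gave 28.9, 25.6 and 28.1 CPM for control and 15.0, 10.2 and 15.7 CPM for PS-MP. The log2 fold change of that sum was -1.01 (SE 0.19, interval -1.48 to -0.55). Its edgeR adjusted p was 0.767 and its DESeq2 adjusted p 0.00677, so the tools part on whether it passes. That sum too was chosen after the data were seen, and it leaves out the neighbour Slc22a26. With Slc22a26 added, the sum was 31.2, 27.0 and 32.5 CPM for control and 31.6, 19.9 and 17.3 CPM for PS-MP, which overlap. That wider sum was not tested.

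Other genes of the cluster did not share one course. Slc22a29 was at 1.17, 2.14 and 0.917 CPM in the control libraries, against 0.486, 0.736 and 0.747 CPM in those of PS-MP, without overlap (log2 fold change -1.09, SE 0.39, edgeR adjusted p = 0.900). Slc22a27 was at 3.95, 1.86 and 7.16 CPM with control chow, against 2.85, 3.24 and 2.32 CPM with PS-MP, which overlap (log2 fold change -0.63, SE 0.47). The transcripts of Slc22a27 and Slc22a29 align with 96.8% identity, so the split of counts between them is uncertain too. Slc22a26, less alike with 73.7% identity to Slc22a28, went the other way in 2 libraries. In control it stood at 2.23, 1.38 and 4.41 CPM, whereas PS-MP gave 16.6, 9.67 and 1.59 CPM (log2 fold change 1.79, SE 0.83, interval -0.18 to 3.77, adjusted p = 0.923). PS-MP replicates 1 and 2, which had the most Slc22a26, had the least Slc22a28. Slc22a26 counts made up 5.11% to 13.6% of the counts of the 5 genes from Slc22a26 to Slc22a30 in control, and 52.5%, 48.7% and 9.16% in PS-MP.

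**Figure D2:**
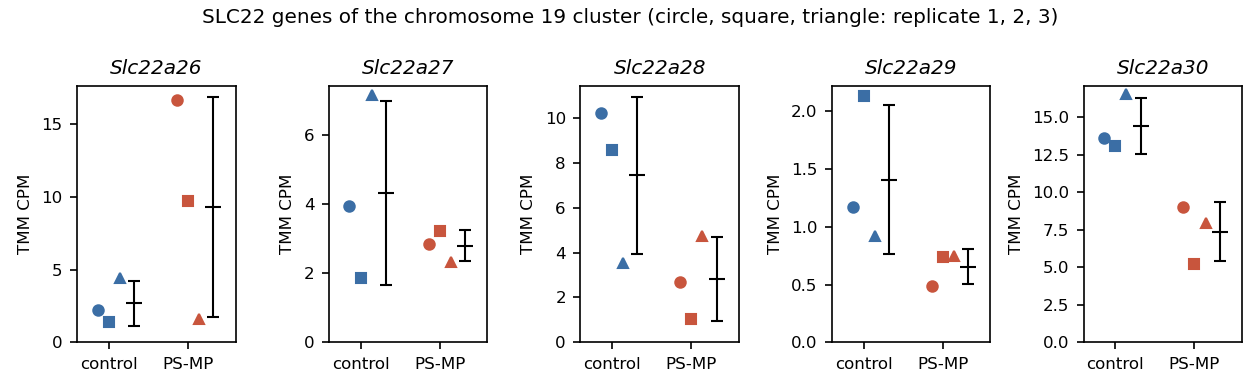
TMM-scaled CPM (vertical axes) of the 5 neighbouring SLC22 genes on chromosome 19 in each control and PS-MP library, with bars for the mean and SD of 3 libraries. Slc22a29 and Slc22a30 lie lower in all PS-MP libraries, while Slc22a26 is high in PS-MP replicates 1 and 2 and at 1.59 CPM in replicate 3. The split of counts between the most alike of these genes is uncertain.

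Slc22a7, the gene of the organic anion carrier OAT2, was the least even of the 9 within a diet. Control libraries had 6.20, 7.14 and 3.91 CPM, whereas PS-MP libraries had 2.003, 1.06 and 10.2 CPM. PS-MP replicate 3 was the highest of the 6 libraries and the other PS-MP libraries the lowest, so the diets overlap and the coefficient of variation was 114% in PS-MP against 28.9% in control. The log2 fold change was -0.38 (SE 0.80, interval -2.29 to 1.54, edgeR adjusted p = 0.9998). This value rests on single libraries: with PS-MP replicate 3 left out it was -1.92 (edgeR adjusted p = 0.547, unadjusted p of 0.00486), and with PS-MP replicate 2 left out it was 0.10.

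Slco2b1 encodes OATP2B1, which takes up sulphated steroids and statins. With control chow it had 57.3, 37.4 and 46.0 CPM, and with PS-MP 90.4, 46.7 and 57.9 CPM. PS-MP replicate 1 was high and the other PS-MP libraries lay within or just above the control range. The log2 fold change was 0.47 (SE 0.28, interval -0.20 to 1.14, edgeR adjusted p = 0.961), and 0.16 without PS-MP replicate 1. Leaving out PS-MP replicate 2 instead gave 0.66, with an unadjusted p of 0.0461. The antisense genes that overlap Slco2b1 were far lower, Gm15635 at 0.593 ± 0.426 and 1.18 ± 0.238 CPM and Gm34280 at 0.180 ± 0.0422 and 0.126 ± 0.0492 CPM in control and PS-MP (SD, n = 3). The libraries are directional, but the strand setting of the counting is not given. Whether reads of Slco2b1 and of these genes were kept apart in the stretches they share is therefore not known.

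The exporters showed no shared direction. Abcg2 encodes BCRP, an ATP-driven pump of the bile canaliculus for sulphate conjugates, urate and many drugs. Control libraries held 65.1, 53.2 and 74.1 CPM, whereas those of PS-MP held 25.4, 50.7 and 53.1 CPM. The groups do not overlap, but only just, since the lowest control library and the highest PS-MP library differ by 0.0978 CPM. The log2 fold change was -0.57 (SE 0.30, interval -1.28 to 0.13, edgeR adjusted p = 0.939), and PS-MP replicate 1 carried much of it, with -0.30 when that library was left out.

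Slc47a1 encodes MATE1, which exchanges protons for organic cations such as metformin. With control chow it stood at 47.3, 29.5 and 60.3 CPM, against 78.7, 54.7 and 53.6 CPM with PS-MP. All PS-MP libraries lay above control replicates 1 and 2, and control replicate 3 lay inside the PS-MP range. The log2 fold change was 0.45 (SE 0.29, interval -0.24 to 1.14, edgeR adjusted p = 0.982), with 0.21 without control replicate 2, the library with the most Rn18s-rs5.

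Abcc6, the gene of MRP6, is needed for the release of ATP from hepatocytes, and its loss leads to calcification of soft tissue. The control libraries, at 25.3, 60.6 and 86.4 CPM, varied more than those of PS-MP, at 61.2, 56.1 and 69.0 CPM. All PS-MP values lay inside the control range, and the log2 fold change was 0.11 (SE 0.40, interval -0.86 to 1.08, adjusted p = 0.9998). It was -0.24 without control replicate 1 and 0.54 without control replicate 3.

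The remaining carriers had the log2 fold changes smallest in size of all members. Slc22a23, an orphan carrier with no settled substrate, had 68.03, 52.0 and 69.4 CPM with control chow, against 57.5, 64.1 and 59.1 CPM with PS-MP. All PS-MP values lay inside the control range, and the log2 fold change was -0.07 (SE 0.15, interval -0.42 to 0.29). Slc22a18, an imprinted gene beside Cdkn1c and Phlda2, had 86.5, 59.9 and 110 CPM with control chow, against 94.9, 72.8 and 79.2 CPM with PS-MP, again inside the control range. Its log2 fold change was -0.06 (SE 0.24, interval -0.62 to 0.51), so for both genes a 2-fold change in either direction lay outside the interval. For the other 7 members the interval reached past 2-fold on at least 1 side.

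**Figure D3:**
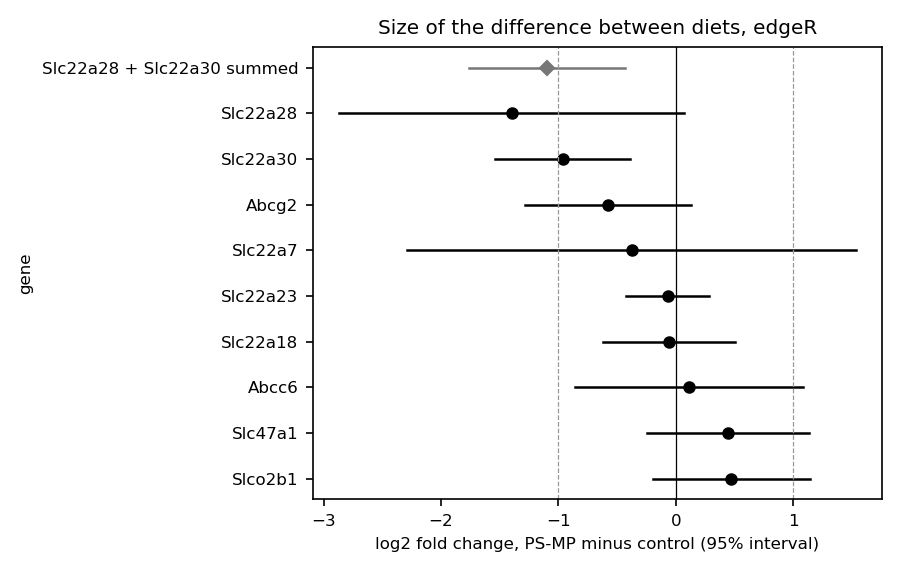
Log2 fold change, PS-MP minus control (horizontal axis), for each transporter gene with its 95% interval from edgeR, and for the summed counts of Slc22a28 and Slc22a30; dashed lines mark 2-fold. The intervals of Slc22a30 (-1.54 to -0.39) and of the sum (-1.76 to -0.43) lie below zero and all others cross it. The sum was chosen after the data were seen and includes the counts of Slc22a30. Both had an edgeR adjusted p of 0.767.

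Leaving out single libraries shows which values rest on 1 sample. Slc22a30 stayed between -1.13 and -0.76, Slc22a28 between -2.01 and -0.99, Abcg2 between -0.77 and -0.30, and the summed pair between -1.30 and -0.84. Slc47a1 stayed between 0.21 and 0.70 and Slco2b1 between 0.16 and 0.66. The log2 fold changes of Slc22a7, Slc22a18, Slc22a23 and Abcc6 crossed zero.

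**Figure D4:**
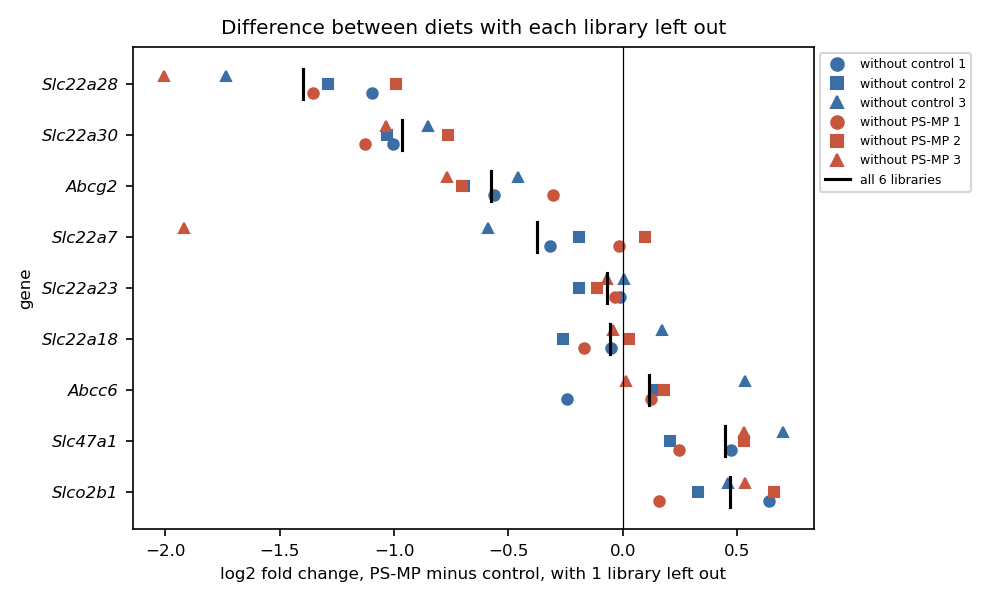
Log2 fold change of each transporter gene (horizontal axis) with each of the 6 libraries left out in turn, coloured by the diet of the library left out; black ticks give the value with all libraries. Slc22a7 moves to -1.92 without PS-MP replicate 3, while Slc22a30 stays between -1.13 and -0.76.

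Across libraries the members did not move as 1 block. Each gene's log2 CPM was set against its own mean over the 6 libraries. PS-MP replicate 2 was the lowest library for Slc22a7 (-1.87), Slc22a28 (-1.93) and Slc22a30 (-0.96), but for Abcg2 and Abcc6 it was near their means (-0.01 and 0.00). PS-MP replicate 1 was the lowest library for Abcg2 (-1.01) and the highest for Slco2b1 (0.75) and Slc47a1 (0.60). Control replicate 2 was the lowest for Slc22a18, Slc22a23, Slc47a1 and Slco2b1, at -0.46, -0.24, -0.81 and -0.52.

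**Figure D5:**
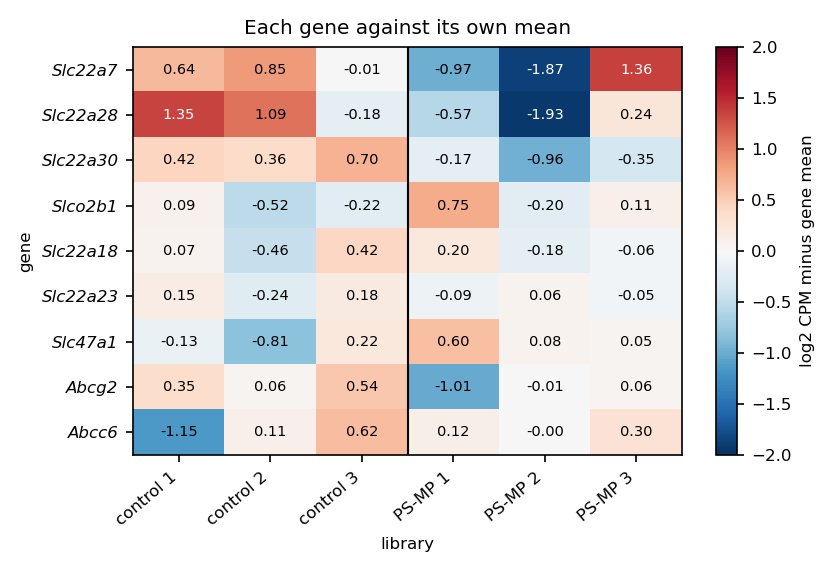
Log2 CPM of each transporter gene minus its mean over 6 libraries (colour and printed values), by library. PS-MP replicate 2 is low for Slc22a7, Slc22a28 and Slc22a30, and PS-MP replicate 1 is low for Abcg2 and high for Slco2b1 and Slc47a1.

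The transporter whose course over the 6 libraries lay nearest to each member was found among 46 tested transporters by the root mean square difference of these centred values. Slc47a1 and Slco2b1 were nearest to each other (0.27, against a median of 0.67 and 0.72 to the other transporters). Slc22a28 was nearest to Slc22a7 (0.58, median 1.17), and Slc22a7 to Abcb11, the bile salt export pump (0.57, median 1.19). Abcg2 was nearest to Slc22a3 (0.27), Slc22a30 to the carnitine carrier Slc22a5 (0.43), Abcc6 to Abcc9 (0.28), Slc22a23 to the sterol pump gene Abcg8 (0.09), and Slc22a18 to the bile salt uptake carrier Slc10a1 (0.17). These distances describe 6 libraries and favour genes that vary little.

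Per length of transcript, the genes differed widely in level. On the scale of CPM per kilobase of the longest coding transcript, Slc22a18 was the highest in control at 55.1 ± 16.2 (SD, n = 3). Slc47a1 followed at 17.3 ± 5.87, and its SD range overlapped those of Abcc6, Abcg2, Slco2b1 and Slc22a23. Within each control library Slc47a1 nonetheless lay above Abcg2, Slco2b1 and Slc22a23 on this scale. Abcc6 (11.5 ± 6.16), Abcg2 (11.2 ± 1.83), Slco2b1 (10.7 ± 2.28) and Slc22a23 (10.1 ± 1.55) came next, with SD ranges that overlapped each other. Abcg2 lay above Slc22a23 within each control library. Slc22a30 (5.54 ± 0.712), Slc22a28 (3.71 ± 1.74) and Slc22a7 (2.89 ± 0.835) had the lowest means. The SD range of Slc22a28 overlapped those of Slc22a30 and Slc22a7, and that of Abcc6 overlapped those of Slc22a30 and Slc22a28. Within each control library Slc22a28 lay below Slc22a30. The places of Slc22a30 and Slc22a28 also rest on the uncertain split of their counts. In PS-MP the order of the means was Slc22a18 (53.0 ± 7.33), Slc47a1 (23.6 ± 5.37), Slco2b1 (14.8 ± 5.18), Abcc6 (12.5 ± 1.30), Slc22a23 (9.63 ± 0.552), Abcg2 (7.53 ± 2.69), Slc22a30 (2.84 ± 0.755), Slc22a7 (2.22 ± 2.53) and Slc22a28 (1.41 ± 0.924). Slc22a18 and Slc47a1 had the highest means in both diets, and Abcg2 had the fourth in control and the sixth in PS-MP, where its spread overlaps that of Slc22a23 above it and lies clear of that of Slc22a30 below it.

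Other transporters of the same families gave 0 calls as well, with edgeR, DESeq2 or limma-voom. Of 20 other SLC22 genes, 10 were tested, 7 of them below zero (median -0.22). Slc22a17 was at 0.333 ± 0.0840 and 0.742 ± 0.149 CPM (SD, n = 3), without overlap (log2 fold change 1.16, SE 0.34, adjusted p = 0.805). Of 14 other SLCO, SLC10 and SLC47 genes, 11 were tested, 10 of them below zero (median -0.12). Slco1b2 had 301, 580 and 411 CPM with control chow, against 150, 408 and 130 CPM with PS-MP, and the diets overlap through PS-MP replicate 2. Slc47a2, the neighbour of Slc47a1, was at 0.338 ± 0.137 and 0.200 ± 0.0964 CPM (SD, n = 3; log2 fold change -0.77, SE 0.53), and Slco1a1, the 1 gene of this list above zero, had 0.52 (SE 0.85).

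Of 18 other ABCB, ABCC and ABCG efflux genes, 16 were tested, 8 in each direction (median 0.00). Abcb11 had 59.9, 93.8 and 64.3 CPM with control chow, against 28.5, 29.2 and 79.4 CPM with PS-MP. As for Slc22a7, PS-MP replicate 3 stood among the control libraries or above and the other PS-MP libraries below them. Abcg1, a sterol exporter also made by macrophages, was at 3.73 ± 0.190 and 4.98 ± 0.309 CPM (SD, n = 3), without overlap (log2 fold change 0.42, SE 0.17, adjusted p = 0.923). The summed level of the Kupffer cell and macrophage markers given above did not overlap either, and a link between that sum and Abcg1 was not tested. Abcc5 had 0.43 (SE 0.23) and Abcc4 -0.64 (SE 0.43). At an unadjusted p under 0.05 edgeR had 2 genes of these 3 lists above zero, Slc22a17 and Abcg1, and 1 below, Slc22a29, where 2.8% and 2.58% of all genes were.

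Transcription factors that act on transporter genes were tested for all 25 genes of a list, with 16 above and 9 below zero and 0 called by edgeR or limma-voom. At an unadjusted p under 0.05 edgeR had 3 of the 25, Stat5a and Cux2 among them, against 5.38% of all genes. DESeq2 called 1, Cux2, against 1.06%. Stat5a, Cux2, Stat5b and Bcl6 are named after their values were seen. Cux2, a factor known for its higher level in female than in male mouse liver, had 0.193, 0.214 and 0.293 CPM with control chow, against 6.56, 4.87 and 0.385 CPM with PS-MP (log2 fold change 4.06, SE 0.98, edgeR adjusted p = 0.767, DESeq2 adjusted p = 0.000739). PS-MP replicates 1 and 2, high for Cux2, are those high for Slc22a26 and low for Slc22a28 and Slc22a7. Slc22a30 did not follow Cux2 among the PS-MP libraries, with 8.98 CPM in replicate 1 and 7.94 CPM in replicate 3. Slc22a28 was also low in control replicate 3 (3.54 CPM), where Cux2 was at 0.293 CPM. A link between these genes was not tested. Stat5a, which carries growth hormone signals, had 15.4, 12.5 and 14.04 CPM with control chow, against 8.33, 6.94 and 11.7 CPM with PS-MP, without overlap (log2 fold change -0.64, SE 0.23). Hnf4a, a main regulator of hepatocyte genes, was at 328 ± 43.8 and 320 ± 36.5 CPM (SD, n = 3; interval of the log2 fold change -0.40 to 0.34). Nr1i2, the gene of the foreign compound receptor PXR, had -0.37 (SE 0.18, interval -0.81 to 0.07) and Nr1h4, of the bile acid receptor FXR, 0.25 (SE 0.13). Ppara had 0.29 (SE 0.35), Nfe2l2 0.15 (SE 0.17) and Ahr 0.11 (SE 0.29). Nr1i3, the gene of CAR, ran from 7.31 to 230 CPM in control and from 43.3 to 236 CPM in PS-MP, so its log2 fold change of 0.39 has an interval from -2.63 to 3.41 and even a 4-fold change was not excluded.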

How the data were processed

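RNA sequencing of poly(A)-selected directional libraries was done on 6 liver samples, per the labels. The deposited files hold raw whole-number counts per gene made by the authors; the submitters' processing notes name bcl2fastq and build GRCm39. The sources used here name no aligner, counter, annotation or strand setting. Each file lists 56674 rows under 55802 symbols, and rows of the 67 repeated symbols were summed. A deposited table of the series holds the same counts.

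Genes were filtered with filterByExpr, scaled by TMM and compared by diet in edgeR 4.0.16 (R 4.3.3) by its quasi-likelihood test, with Benjamini-Hochberg adjustment across the genes tested. Intervals use each standard error and the moderated degrees of freedom (6.63). Log2 CPM used a prior count of 2. Alternatives were other scalings and filters, DESeq2 1.42.0, limma-voom (limma 3.58.1), robust dispersions, a replicate block and fits without each library.

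The members and gene lists were chosen with earlier results of these data known. Named genes are the 9 members, the 2 genes of smallest p in each direction of the 3 lists of other transporters, 8 transcription factors and the nearest transporter to each member; others were chosen after their values were seen. Single values of 2 genes that the rule names, which the counts of their lists include, and 1 further motif searched are not reported here. On simulated counts with the tagwise spread of these libraries (17232 genes), edgeR called 68 of the 100 genes given a 4-fold change, 3 of the 100 given a 2-fold change and 6 of those given none, and 95.4% of intervals held the true value. With the trended spread (17248 genes) it called 84, 25 and 11, and 95.3% of intervals held the true value. Sequences and transcript overlaps come from RefSeq and GENCODE M21 tables of an earlier build, used only for sequence, length and order of genes.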

Additional observations from a re-analysis of the deposited data

How the results depend on the processing

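The 9 transporters gave 0 calls under each of 15 other settings, which were 3 other scalings, 2 filters, DESeq2, limma-voom, robust dispersions, the replicate block and the 6 fits without 1 library. Over all genes, 2 were called with all libraries in edgeR, 187 with DESeq2, 1 with limma-voom and 0 with the replicate block, and between 0 and 4 with 1 library left out (0 without control replicate 3, 4 without control replicate 2). Whether replicate numbers pair the samples could not be decided with 3 libraries a diet. Deviations of same-numbered libraries correlated at 0.11, 0.14 and -0.13 across genes. Those of libraries with different numbers correlated at -0.19 to 0.10. In the fit with the replicate block Slc22a30 had a log2 fold change of -0.99, and Slco2b1 0.44 with an unadjusted p of 0.0212 (adjusted p = 0.868).

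Of 135 values of single members under these settings, 128 kept direction and side of the threshold and 7 changed sign without passing. With library size alone, which moved the median of all genes from 0.02 to 0.23, Slc22a18 was at 0.14 and Slc22a23 at 0.14, and the median of the members at 0.14. With single libraries left out, Slc22a7 ran from -1.92 to 0.10, Slc22a18 from -0.26 to 0.17, Slc22a23 from -0.19 to 0.0073 and Abcc6 from -0.24 to 0.54. Slc22a18 and Slc22a23 turned positive without control replicate 3, Slc22a18 (0.03) and Slc22a7 without PS-MP replicate 2, and Abcc6 turned negative without control replicate 1. The cause was not tested. With 3 libraries a diet, 3 of 100 simulated 2-fold changes were called with the tagwise spread and 25 of 100 with the trended spread, so most changes of that size would be missed.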
